A study of Mus musculus with 6 samples.

Results

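Lcn2 and 6 further genes of acute phase proteins, Saa3, Hp, Orm1, Serpina3n, S100a8 and S100a9, were followed in the epididymal adipose tissue of HuRAKO and control mice. The genes were taken by name from the deposited gene table, which lists 13116 genes, and all 7 were listed and all 7 were among the 12847 that averaged 0.5 FPKM or more (sequenced fragments scaled to transcript length and to library size) in the 6 mice. Lcn2 was chosen by its change between these same groups, so its difference is given as a description with no test. The other 6 genes were chosen by function, with earlier results of these data known. RNA-seq was done on 3 HuRAKO mice (HuRflox/flox:AdipoQ-Cre+) and 3 control mice (HuRflox/flox:AdipoQ-Cre-). Mice of both genotypes were C57BL/6, carried floxed alleles of HuR, an RNA-binding protein encoded by Elavl1, and ate a high-fat diet (HFD) for 16 weeks starting when they were 8 weeks old. Cre was driven by the promoter of adiponectin, which is active in adipocytes, so immune, vascular and mesothelial cells of the same fat pad keep their HuR.

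The acute phase response is a change in secreted proteins that follows infection, injury or inflammation. Interleukin-6 acting through STAT3, interleukin-1 and tumor necrosis factor acting through NF-kB, the C/EBP factors and glucocorticoids induce these genes in the liver. In mice, obese adipose tissue is also a source of lipocalin 2, serum amyloid A3, haptoglobin and orosomucoid, which are made by adipocytes and in part by macrophages, while S100a8 and S100a9 are most abundant in neutrophils and monocytes.

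Promoters were searched because factors of these families are known to act on acute phase genes, and those with a match are shown. RefSeq promoters of the build GRCm38.p6, which run from 250 bases before to 50 bases after the start, were matched for 5 of the 7 genes. They were searched on both strands for the C/EBP consensus TTGCNNAA, which 10.8% of all 32851 promoters hold, for the STAT site TTCNNNGAA (8.3%) and for the NF-kB consensus (4.51%). The C/EBP letters occurred in the promoters of Lcn2, Saa3 and S100a9 and are set in capitals below, in 5′ to 3′ direction of each gene. No match to the other motifs was found in the 5 windows.
Lcn2, chr2:32387690-32387989, minus strand: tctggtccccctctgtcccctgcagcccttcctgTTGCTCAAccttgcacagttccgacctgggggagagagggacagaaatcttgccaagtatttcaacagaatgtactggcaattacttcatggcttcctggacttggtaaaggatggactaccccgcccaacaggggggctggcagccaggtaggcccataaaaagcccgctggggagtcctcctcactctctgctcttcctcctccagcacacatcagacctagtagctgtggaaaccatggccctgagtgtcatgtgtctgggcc
Saa3, chr7:46715627-46715926, minus strand: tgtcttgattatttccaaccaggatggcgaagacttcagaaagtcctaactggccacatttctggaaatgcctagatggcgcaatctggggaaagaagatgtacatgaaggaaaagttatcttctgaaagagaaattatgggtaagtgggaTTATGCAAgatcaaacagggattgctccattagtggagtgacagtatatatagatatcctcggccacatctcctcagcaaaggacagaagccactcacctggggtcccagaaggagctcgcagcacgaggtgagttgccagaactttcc
S100a9, chr3:90695672-90695971, minus strand: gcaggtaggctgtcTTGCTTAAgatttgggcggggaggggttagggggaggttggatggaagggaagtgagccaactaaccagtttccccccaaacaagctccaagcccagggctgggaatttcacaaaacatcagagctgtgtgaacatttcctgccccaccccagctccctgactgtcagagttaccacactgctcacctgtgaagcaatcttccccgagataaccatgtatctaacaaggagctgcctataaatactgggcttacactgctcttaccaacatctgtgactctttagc

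HuR binds AU-rich elements of 3′-UTRs, so the 3′-UTRs were read as well. In the listed transcript of each gene with the longest 3′-UTR (GENCODE M21), the core pentamer ATTTA occurred in 0 of the 7 genes, against 69.6% of the 11666 tested genes with a listed 3′-UTR. These 3′-UTRs are short. They have 232 bases in Lcn2, 128 in Saa3, 143 in Hp, 113 in Orm1, 68 in S100a8 and 114 in S100a9, while Serpina3n has 723 bases, against a median of 1114 bases over the same genes.

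One library stood apart before any gene was compared. On the first principal component (41.1% of the variance) control replicate 3 was placed at 48.3, while all other mice were placed from -14.5 to -3.09. It was the highest of the 6 mice in 27.1% of genes tested, and in 5 of the 7 acute phase genes (Lcn2, Saa3, Hp, Serpina3n and S100a9). The difference of each of the 7 genes is therefore given with this mouse and without it. Of the 12738 genes that pass the filter also without this mouse, it was the highest in 26.6%. Elavl1, the deleted gene, was measured at 4.66, 5.24 and 5.63 FPKM in HuRAKO mice, against 3.93, 4.85 and 4.98 FPKM in control mice. These ranges overlap, and the mean was higher in HuRAKO mice (5.18 against 4.59 FPKM, log2 fold change 0.15, SE 0.12, limma adjusted p = 0.807). In adipose tissue of HuRAKO mice the study reported less HuR mRNA by qPCR and less HuR protein by western blot. The drop in mRNA is not shown by these values, and the reason was not tested. The deletion is thus not checked here, and the names of the groups are those of the labels. Summed FPKM lay between 250270 and 264055 per mouse. The depth per mouse is unknown because FPKM hold no read numbers, which leaves the spread between mice as the only measure of precision, with no interval for counting error.

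Only Lcn2 of the 7 genes was measured at separate levels in the 2 genotypes, lower in HuRAKO mice. Of all genes tested, 7.68% were lower in HuRAKO mice without overlap. By the thresholds of the study's methods, a fold above 1.5 with p below 0.05 before adjustment, here from limma on log2(FPKM + 1), 1.27% of genes were called higher and 1.35% lower in HuRAKO mice. Of the 6 genes other than Lcn2, 0 were called in either direction and 0 had an unadjusted p under 0.05. With Benjamini-Hochberg adjustment over all genes, limma called 1 gene (0.00778%), which is none of the 7, while 1031 genes had an unadjusted p under 0.05. All log2 fold changes below are HuRAKO minus control on the log2(FPKM + 1) scale, which understates changes of low genes. In whole tissue, fewer cells that make a transcript and less of the transcript per cell cannot be told apart.

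**Figure D1:**
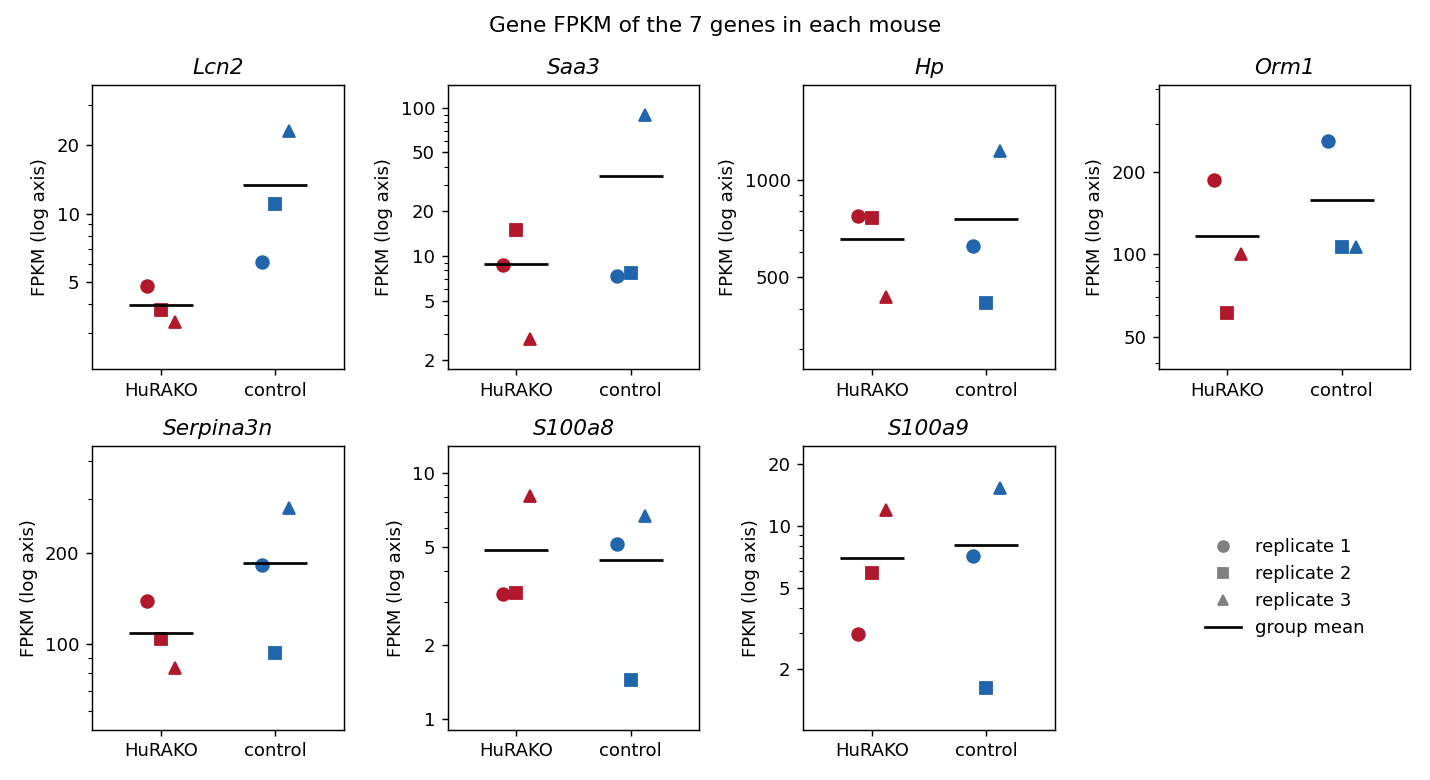
Gene FPKM of the 7 genes in each mouse (vertical log axis), with HuRAKO mice in red on the left and control mice in blue on the right. Symbols mark the replicate number and bars the group means (n = 3 each). Control replicate 3 (blue triangle) is the highest mouse in 5 of the 7 panels, and only Lcn2 shows no overlap.

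Lcn2 (ENSMUSG00000026822.14, GRCm38 chr2:32384633-32388252, minus strand) encodes lipocalin 2, a secreted protein that binds iron-carrying siderophores and is produced by neutrophils, macrophages and adipocytes. It was measured at 4.80, 3.77 and 3.34 FPKM in HuRAKO mice, against 6.14, 11.02 and 22.9 FPKM in control mice. All HuRAKO mice were low and close to each other, within 1.44-fold, and the control mice spread over 3.73-fold. The means were 3.97 ± 0.748 FPKM in HuRAKO and 13.4 ± 8.64 FPKM in control mice (SD, n = 3 each), a log2 fold change of -1.37. Control replicate 3 was 2.08 times the next highest mouse, and only 3.05% of genes had more than 2 times the next value in that mouse. Without it the log2 fold change was -0.91, and the mean of the other control mice, 8.58 FPKM, was 2.16 times that of HuRAKO mice, in place of 3.37 times. The gap between the highest HuRAKO mouse (4.80 FPKM) and the lowest control mouse (6.14 FPKM) is small beside the range of the control mice.

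The deposited transcript table lists 2 of the 6 annotated Lcn2 transcripts. Lcn2-201, of 915 bases, was measured at 11.4, 9.59 and 8.82 FPKM in HuRAKO mice, against 15.9, 27.9 and 56.7 FPKM in control mice. It had the same order of mice as the gene and carried between 83.0% and 92.1% of its signal. Lcn2-206 was measured at 0.906, 0.565 and 0.126 FPKM in HuRAKO mice, against 0.0984, 1.69 and 2.15 FPKM in control mice. Here the genotypes overlapped, with control replicate 1 the lowest mouse.

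The values of a gene and of its transcripts differ for a reason in their construction. In 473 of 473 genes with at least 2 transcripts, all of them listed, the gene FPKM equalled within 1% the sum of transcript length times transcript FPKM over the union of exons. Long annotated exons with few reads thus lower the FPKM of a gene. The union of Lcn2 has 2623 bases and that of Saa3 has 2606 bases, while the transcript Saa3-201 has 555. On the transcript scale, mean levels over the 6 mice were 842 FPKM for Hp-201, 147 FPKM for Serpina3n-201, 137 FPKM for Orm1-201, 101 FPKM for Saa3-201, 21.7 FPKM for Lcn2-201, 6.30 FPKM for S100a8-201 and 6.14 FPKM for S100a9-201. Serpina3n, Orm1 and Saa3 overlap between mice and are not ordered beyond their spread, and neither are the S100 genes. Of the 7 listed transcripts of the 6 genes other than Lcn2, 0 were called by the same thresholds (background 4.59% of 23233 transcripts).

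**Figure D2:**
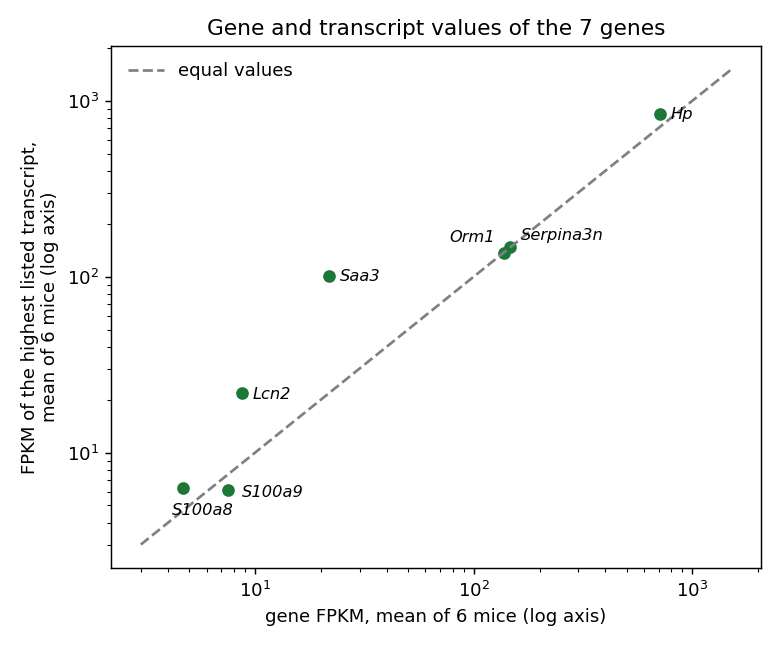
Mean FPKM over the 6 mice of the highest listed transcript (vertical log axis) against mean FPKM of the gene (horizontal log axis). Each point is 1 of the 7 genes, and the dashed line marks equal values. Saa3 and Lcn2 lie above the line, Saa3-201 at 101 FPKM and Lcn2-201 at 21.7 FPKM.

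Saa3 (ENSMUSG00000040026.8, chr7:46711998-46715700, minus strand) encodes serum amyloid A3, the mouse form made outside the liver by adipocytes and macrophages. It was measured at 8.76, 15.1 and 2.78 FPKM in HuRAKO mice, against 7.34, 7.65 and 89.0 FPKM in control mice. Control replicate 3 was far above all others, at 5.90 times the next mouse, and the remaining control mice lay within the HuRAKO range. The means were 8.88 ± 6.16 FPKM in HuRAKO and 34.7 ± 47.1 FPKM in control mice (SD, n = 3 each). The log2 fold change of -1.15 (SE 1.02) did not pass (limma, adjusted p = 0.822), and it was -0.0159 without control replicate 3. The excess of control replicate 3 over the mean of control replicates 1 and 2, on the log2 scale, ranked 23 of 12847 genes. Saa3-201, which carried at least 98.2% of the signal, was measured at 41.0, 70.1 and 13.03 FPKM in HuRAKO mice, against 33.9, 35.6 and 413 FPKM in control mice. No other serum amyloid A gene was listed, so reads shared with Saa1 or Saa2 were not analysed here.

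Hp (ENSMUSG00000031722.10, chr8:109575128-109579172, minus strand) encodes haptoglobin, which binds free hemoglobin and is expressed by mouse adipocytes. Hp was measured at 776, 762 and 435 FPKM in HuRAKO mice, against 623, 418 and 1226 FPKM in control mice. Control replicate 3 was the highest and control replicate 2 the lowest mouse, so the control range enclosed all HuRAKO mice. Hp was the most abundant of the 7 genes and ranked 28 of 12847 by gene FPKM. The means were 657 ± 193 FPKM in HuRAKO and 756 ± 420 FPKM in control mice (SD, n = 3 each). The log2 fold change was -0.10 (SE 0.43, limma adjusted p = 0.967), and 0.32 without control replicate 3, so its sign depended on that mouse.

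Orm1 (ENSMUSG00000039196.2, chr4:63344560-63348163, plus strand) encodes orosomucoid 1, an acid glycoprotein of plasma with a lipocalin fold. Orm1 was measured at 187, 61.0 and 101 FPKM in HuRAKO mice, against 260, 107 and 106 FPKM in control mice. Replicate 1 was the highest mouse of each genotype, and control replicate 3 was not high. The means were 116 ± 64.5 FPKM in HuRAKO and 157 ± 88.4 FPKM in control mice (SD, n = 3 each), with a log2 fold change of -0.45 (SE 0.50, limma adjusted p = 0.854), which was -0.66 without control replicate 3. Orm2 and Orm3, closely similar copies between which reads may be split, were lower in level. Orm3 was measured at 10.4, 5.62 and 4.30 FPKM in HuRAKO mice, against 8.64, 4.005 and 3.71 FPKM in control mice, again highest in both mice numbered 1. Orm2 was measured at 4.72, 0.518 and 2.61 FPKM in HuRAKO mice, against 2.54, 0.789 and 1.77 FPKM in control mice.

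Serpina3n (ENSMUSG00000021091.8, chr12:104406729-104414329, plus strand) encodes a secreted inhibitor of serine proteases, related to human α1-antichymotrypsin. It was measured at 139, 104 and 83.4 FPKM in HuRAKO mice, against 181, 93.1 and 282 FPKM in control mice. Control replicates 1 and 3 were above all HuRAKO mice, and control replicate 2 was within their range. The means were 109 ± 27.9 FPKM in HuRAKO and 185 ± 94.4 FPKM in control mice (SD, n = 3 each), with a log2 fold change of -0.66 (SE 0.41, limma adjusted p = 0.755). Without control replicate 2, the log2 fold change was -1.08 (SE 0.29) and Serpina3n met the study's thresholds with an unadjusted limma p of 0.0114, while its adjusted p was 0.708. Without control replicate 3, the log2 fold change was -0.29.

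The Serpina3 cluster on chromosome 12 holds many similar genes, between which reads may be split. Of its 7 other genes tested, 0 were called in either direction, with a median log2 fold change of -0.55 (all genes, -0.01). Over the same 7 genes without control replicate 3 this median was 0.16, and 2 of them, Serpina3f and Serpina3i, passed the filter only through that mouse. Serpina3g was measured at 2.70, 1.505 and 1.996 FPKM in HuRAKO mice, against 1.46, 1.72 and 36.0 FPKM in control mice. Serpina3f was measured at 0.613, 0.303 and 0.456 FPKM in HuRAKO mice, against 0.359, 0.238 and 15.9 FPKM in control mice. Both genes were high in control replicate 3 alone. Serpina3c was measured at 86.5, 52.4 and 101 FPKM in HuRAKO mice, against 55.5, 62.9 and 54.3 FPKM in control mice, and did not share that pattern.

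S100a8 and S100a9 encode the calcium-binding subunits of calprotectin, which binds zinc and manganese and is released by neutrophils and monocytes. S100a8 (ENSMUSG00000056054.9, chr3:90668978-90670035, plus strand) was measured at 3.24, 3.26 and 8.11 FPKM in HuRAKO mice, against 5.16, 1.45 and 6.70 FPKM in control mice. S100a9 (ENSMUSG00000056071.12, chr3:90692632-90695721, minus strand) was measured at 2.99, 5.90 and 11.9 FPKM in HuRAKO mice, against 7.12, 1.63 and 15.3 FPKM in control mice. Both genes were high in replicate 3 of each genotype and lowest in control replicate 2, and the genotypes overlapped throughout. S100a8 averaged 4.87 ± 2.81 FPKM in HuRAKO and 4.44 ± 2.70 FPKM in control mice, with a log2 fold change of 0.17 (SE 0.50, limma adjusted p = 0.951). S100a9 averaged 6.94 ± 4.56 FPKM in HuRAKO and 8.02 ± 6.89 FPKM in control mice, with a log2 fold change of 0.01 (SE 0.72, limma adjusted p = 0.998). Without control replicate 3 the log2 fold change was 0.50 for S100a8 and 0.62 for S100a9, and without control replicate 2 it was -0.33 for S100a8 and -0.70 for S100a9, so neither gene had a sign that held over the mice. The ratio of S100a9 to S100a8 lay between 0.923 and 1.81 in HuRAKO mice and between 1.12 and 2.28 in control mice.

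Of 9 other genes tested in the S100 list, 8 encode calcium-binding S100 proteins and 1, S100pbp, a protein that binds S100P. None of the 9 was called (0 higher, 0 lower), 0 were highest in control replicate 3, and their median log2 fold change was 0.09 (0.07 without control replicate 3). S100a11 was measured at 711, 589 and 572 FPKM in HuRAKO mice, against 587, 496 and 436 FPKM in control mice (limma, log2 fold change 0.30, adjusted p = 0.694).

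**Figure D3:**
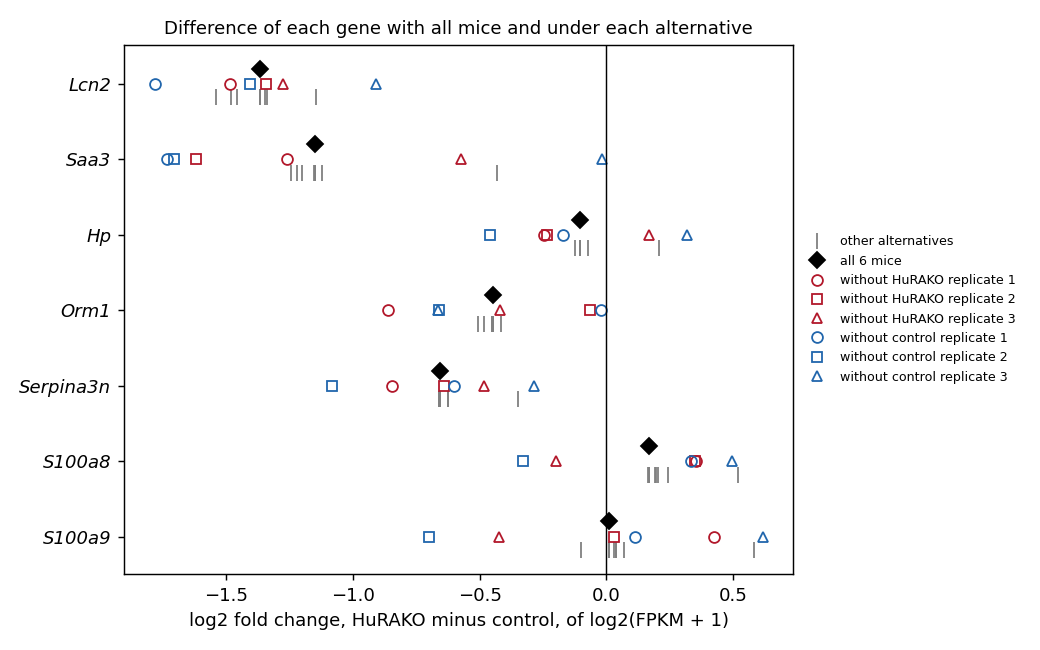
Log2 fold change of each gene, HuRAKO minus control on the log2(FPKM + 1) scale (horizontal axis), with 1 gene per row. Black diamonds show all 6 mice, open symbols the fit without 1 mouse, and grey ticks the other alternatives of processing. Lcn2 ran from -1.78 to -0.91 when 1 mouse was left out, and Hp, S100a8 and S100a9 had values on both sides of 0.

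The order of the mice differed between the 7 genes. Likeness was measured as the root mean square difference between the log2(FPKM + 1) values of 2 genes over the 6 mice, each centred on its own mean, so a small value means a like pattern of like size. The closest pairs were Hp with Serpina3n (0.336) and S100a8 with S100a9 (0.382), and the least alike was Saa3 with Orm1 (1.69). Serpina3n was the most like Lcn2 (0.620) but ranked only 520 of all genes tested in likeness to it. Hp (0.764) ranked 2163. A gene equal in all mice would have a difference of 0.858 from Lcn2, and Saa3 (0.912), Orm1 (1.07), S100a8 (1.09) and S100a9 (1.16) lay above it, at ranks 8813, 11935, 12026 and 12376. The measure takes the size of a swing with its direction, so the rank of Saa3, which was also highest in control replicate 3 and lowest in HuRAKO replicate 3, does not mean an opposite order of mice. The spread within genotypes was wide in all 7 genes: the within-group SD on the log2 scale was larger than in 94.8% of genes for Lcn2 and in 99.8% for Saa3.

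The gene with the pattern most like Lcn2 was Tmem119, which encodes a transmembrane protein, with a difference of 0.0856. Tmem119 was measured at 12.99, 10.3 and 10.3 FPKM in HuRAKO mice, against 14.4, 26.6 and 58.1 FPKM in control mice. It had the order of mice of Lcn2 except that HuRAKO replicates 2 and 3 were almost equal. It was followed by Ddx60 (0.245), Slfn9 (0.250), Dnaaf3 (0.266), Vat1l (0.292), Cmpk2 (0.296), Il33 (0.301) and Cldn3 (0.303). Ddx60 and Cmpk2 are interferon-stimulated genes, Il33 encodes an alarmin cytokine and Cldn3 a tight junction protein. Cmpk2 was measured at 3.95, 5.20 and 3.39 FPKM in HuRAKO mice, against 3.80, 8.53 and 20.5 FPKM in control mice. Il33 was measured at 5.37, 6.13 and 6.55 FPKM in HuRAKO mice, against 8.14, 11.9 and 21.6 FPKM in control mice. All 8 genes were highest in control replicate 3. As they were taken for their likeness to Lcn2, no test is given for them.

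Of 40 other genes in a list drawn up for the acute phase response, 22 were listed and 21 were tested. The list is mixed, and some of its genes, such as Hif3a and Tfrc, do not encode acute phase proteins. Classical acute phase genes of the liver such as Crp, Apcs, the fibrinogen genes, Saa1 and Saa2 were not among the listed ones. By the study's thresholds 0 were higher and 2 were lower in HuRAKO mice, against 1.27% and 1.35% of all genes. The median log2 fold change was 0.02, which is the value of Trf. The lower ones were Itih4, an inter-α-trypsin inhibitor heavy chain, and Cp, the copper-carrying ferroxidase ceruloplasmin. Itih4 was measured at 0.394, 0.550 and 0.229 FPKM in HuRAKO mice, against 1.29, 1.03 and 1.38 FPKM in control mice, without overlap (log2 fold change -0.69, SE 0.13, limma adjusted p = 0.339). With means of 0.391 FPKM in HuRAKO and 1.24 FPKM in control mice, Itih4 passed the filter of 0.5 FPKM only through the control mice. Cp was measured at 15.2, 26.0 and 21.3 FPKM in HuRAKO mice, against 28.9, 31.8 and 44.6 FPKM in control mice, also without overlap (log2 fold change -0.73, SE 0.24, limma adjusted p = 0.523), and it was not called without control replicate 3 (log2 fold change -0.55). The complement gene C3 was measured at 546, 444 and 858 FPKM in HuRAKO mice, against 977, 726 and 1643 FPKM in control mice. The genotypes overlapped and it was not called (log2 fold change -0.83, SE 0.36, limma adjusted p = 0.634), whereas it was called lower with the replicate number as a block (SE 0.10, limma adjusted p = 0.404), without HuRAKO replicate 3 and without control replicate 2. Without control replicate 3 the log2 fold change of C3 was -0.51.

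Other acute phase genes had higher means in HuRAKO mice. Ftl1, the light chain of the iron store ferritin, was measured at 418, 337 and 514 FPKM in HuRAKO mice, against 325, 306 and 361 FPKM in control mice (log2 fold change 0.34, SE 0.17, limma adjusted p = 0.700). Mt2, which encodes the metal-binding metallothionein 2, was measured at 157, 241 and 340 FPKM in HuRAKO mice, against 121, 92.6 and 231 FPKM in control mice (log2 fold change 0.76, SE 0.41, limma adjusted p = 0.720). Lrg1, a leucine-rich secreted glycoprotein induced in the acute phase, was measured at 173, 196 and 155 FPKM in HuRAKO mice, against 110, 74.8 and 190 FPKM in control mice (log2 fold change 0.58, SE 0.33, limma adjusted p = 0.733). Mt2 and Lrg1, named after their values were seen, overlapped between genotypes through control replicate 3. Without this mouse both were called higher, Mt2 with a log2 fold change of 1.14 and Lrg1 with 0.93, and Itih4 was the 1 gene of the list called lower. Over all genes, 202 were called higher and 218 lower without this mouse.

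Among 6 further lipocalins tested, Orm2 and Orm3 among them, 0 were called, with a median log2 fold change of -0.22 (-0.17 without control replicate 3). Apod, a lipid-binding lipocalin, was measured at 6.11, 5.18 and 7.95 FPKM in HuRAKO mice, against 6.46, 8.78 and 30.2 FPKM in control mice. Rbp4, the retinol carrier that adipocytes secrete, was measured at 179, 129 and 135 FPKM in HuRAKO mice, against 297, 231 and 115 FPKM in control mice. Apod was high in control replicate 3, as was Lcn2, whereas Rbp4 was lowest there and was called lower in HuRAKO mice only without that mouse (log2 fold change -0.84).

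Of 18 receptors and partners of the 7 proteins, 0 were called higher and 2 were called lower, against 1.27% and 1.35% of all genes. The lower ones were Mmp9 and Lrp2, both listed here as partners of lipocalin 2. The median log2 fold change was -0.20 (0.02 over the same genes without control replicate 3), and 1 of the genes, Fpr1, passed the filter only through that mouse. Mmp9, a matrix metalloproteinase that human neutrophils release bound to lipocalin 2, was measured at 2.65, 4.84 and 2.22 FPKM in HuRAKO mice, against 9.21, 6.93 and 9.07 FPKM in control mice. These ranges did not overlap (log2 fold change -1.19, SE 0.24, limma adjusted p = 0.377), control replicate 3 was not the highest, and the call remained without any 1 mouse (log2 fold change -1.14 without control replicate 3). Lrp2, the endocytic receptor megalin, was measured at 1.51, 1.38 and 2.28 FPKM in HuRAKO mice, against 2.14, 5.22 and 7.06 FPKM in control mice (log2 fold change -1.002, SE 0.35, limma adjusted p = 0.555). Its ranges overlapped slightly, and it missed the p threshold without HuRAKO replicate 1 or 2 or without control replicate 2 or 3 (log2 fold change -0.71 without the last). Slc22a17, another receptor of lipocalin 2, was measured at 2.96, 3.22 and 2.55 FPKM in HuRAKO mice, against 3.93, 3.72 and 1.88 FPKM in control mice. The haptoglobin-hemoglobin receptor Cd163 was measured at 33.3, 27.4 and 58.3 FPKM in HuRAKO mice, against 39.3, 44.9 and 84.4 FPKM in control mice, and Fpr2, a receptor for serum amyloid A, lay between 0.505 and 0.683 FPKM in every mouse but control replicate 3 (6.62 FPKM).

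Among 22 cytokines that induce the acute phase and their receptors, 0 were called higher and 1 was called lower, against 1.27% and 1.35% of all genes. The median log2 fold change was -0.18 (0.11 over the same genes without control replicate 3). The lower one was Il22ra1, a receptor subunit for interleukin-22, at 0.311, 0.150 and 0.300 FPKM in HuRAKO mice, against 1.32, 0.714 and 1.42 FPKM in control mice (log2 fold change -0.77, SE 0.16, limma adjusted p = 0.379). Its mean was 0.253 FPKM in HuRAKO and 1.15 FPKM in control mice, so it passed the filter of 0.5 FPKM only through the control mice. The cytokines themselves were low outside control replicate 3. Il6 was measured at 0.0438, 0.325 and 0 FPKM in HuRAKO mice, against 0.0378, 0.146 and 3.26 FPKM in control mice. Tnf was measured at 0.564, 0.389 and 0.121 FPKM in HuRAKO mice, against 0.279, 0.177 and 3.07 FPKM in control mice. Il1b was measured at 0.289, 0.980 and 0.0830 FPKM in HuRAKO mice, against 0.356, 0.222 and 2.84 FPKM in control mice. Of the 22 genes, 6 (Il6, Tnf, Il1b, Ifng, Osm and Cxcl2) passed the filter only through control replicate 3, so being highest there was fixed for them. Of the 16 others, 11 were highest in that mouse, against 26.6% of all genes that pass the filter without it.

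Of 24 transcription regulators of the acute phase, 0 were called, with a median log2 fold change of -0.14 (0.06 without control replicate 3). Socs3, a feedback inhibitor induced by STAT3, was measured at 4.32, 4.58 and 3.29 FPKM in HuRAKO mice, against 4.80, 3.32 and 17.05 FPKM in control mice. Cebpb was measured at 31.3, 31.0 and 57.6 FPKM in HuRAKO mice, against 37.6, 56.4 and 65.2 FPKM in control mice. Of 12 glucocorticoid-induced genes 0 were called and 1 was highest in control replicate 3, with a median log2 fold change of 0.19 (-0.07 without HuRAKO replicate 3). Fkbp5, a chaperone induced by glucocorticoids, was measured at 32.4, 21.0 and 53.6 FPKM in HuRAKO mice, against 8.77, 26.8 and 37.6 FPKM in control mice. These genotypes overlapped.

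**Figure D4:**
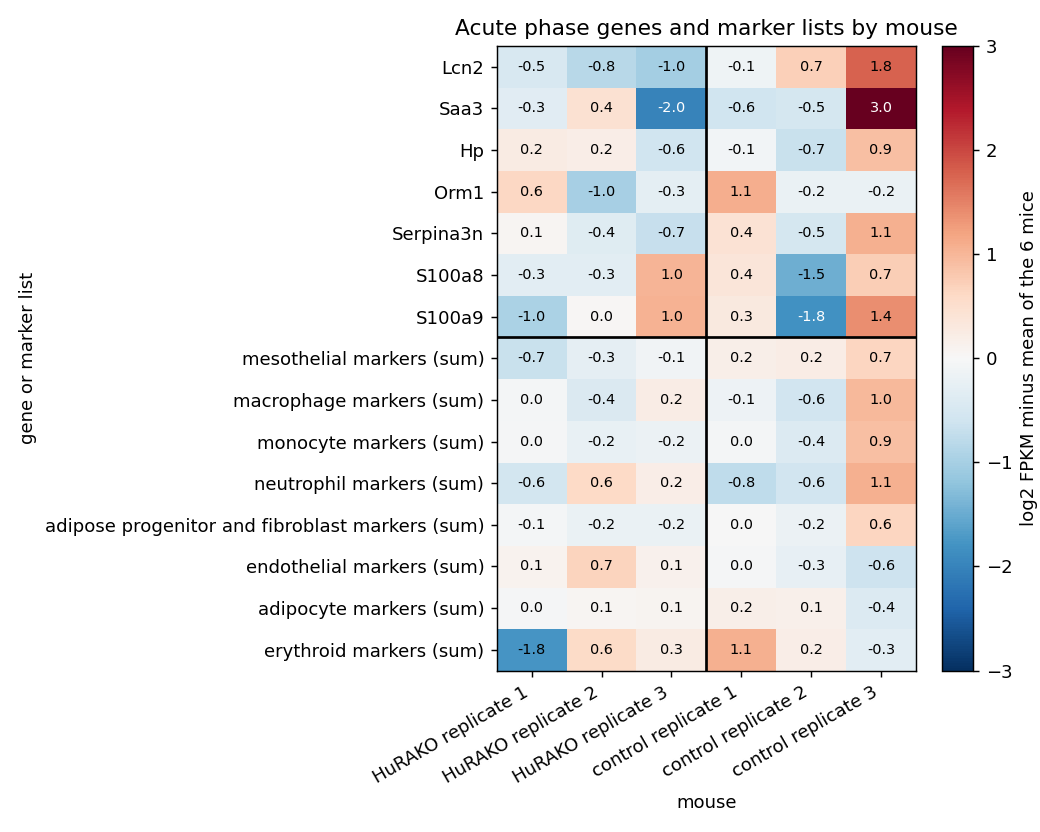
Log2 FPKM of each gene (upper 7 rows) and log2 of the summed FPKM of each marker list (lower 8 rows), each minus its mean over the 6 mice. Columns are mice, with HuRAKO on the left, and red is above and blue below the mean. Control replicate 3 is red for Lcn2 and Saa3 and for the mesothelial, macrophage, monocyte, neutrophil, and progenitor and fibroblast lists. Of the lists shown, only the mesothelial sums separate the genotypes in the direction of Lcn2, and the endothelial sums separate them in the other direction.

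Markers of the cells that can supply these transcripts were measured in the same libraries. Mesothelial markers, of the cell layer that covers epididymal fat, were called lower in 12 of 18 genes with 0 higher, against 1.35% lower over all genes. The median log2 fold change of the list was -0.84. Their summed FPKM lay between 264 and 386 in HuRAKO mice and between 476 and 660 in control mice, without overlap. Without control replicate 3, 10 of 18 were called lower, with a median of -0.64, against 218 called lower over all genes. With the replicate block 13 were, against 197 over all genes. Isl1, a transcription factor of this list, was measured at 0.660, 0.678 and 0.628 FPKM in HuRAKO mice, against 3.99, 2.44 and 3.64 FPKM in control mice (log2 fold change -1.38, SE 0.16, limma adjusted p = 0.192), and without control replicate 3 the log2 fold change was -1.32. The mesothelial sum was lower in HuRAKO mice, as was Lcn2, which was chosen by that contrast. The sum of hepatocyte markers, given below, separated the genotypes in the same direction. Within HuRAKO mice the mesothelial sum was 264, 346 and 386 FPKM in replicates 1 to 3, where Lcn2 was measured at 4.80, 3.77 and 3.34 FPKM. In control mice the sum was 476, 487 and 660 FPKM, in the same order of mice as Lcn2, and Lcn2 spread over 3.73-fold. The part of these markers in the difference of Lcn2 was not tested.

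Of 16 macrophage markers, 1 was called higher (Itgax) and 0 lower, against 1.27% and 1.35% of all genes. Control replicate 3 was the highest mouse in 14 of them, against 27.1% of all genes. The sum lay between 1169 and 1860 FPKM in HuRAKO and between 1064 and 3099 FPKM in control mice. Without control replicate 3, 4 were called higher, Itgax, Trem2, Adgre1 and Cd68, against 202 over all genes. With the replicate block 2 were, Itgax and Trem2, against 187 over all genes. Monocyte markers took 12 rows of the table for 11 genes, since Itgam is listed under 2 gene IDs, and 0 rows were called, with a median log2 fold change of -0.25, and the sum lay between 235 and 269 FPKM in HuRAKO and between 208 and 511 FPKM in control mice. Control replicate 3 was the highest in 11 of the rows, against 27.1% of all genes. Plac8 was measured at 9.58, 4.71 and 10.5 FPKM in HuRAKO mice, against 12.2, 12.1 and 112 FPKM in control mice. Without control replicate 3 the median log2 fold change was 0.30 for the macrophage list, against -0.10 with all mice, and 0.04 for the monocyte list. The part of these lists in the values of Lcn2 and Saa3 in that mouse was not tested.

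Neutrophil markers were scarce. Of 18, 13 were not listed, among them the defining markers Ly6g, Mpo, Camp, Ltf and Ngp, and the 5 listed ones summed to between 8.98 and 19.9 FPKM in HuRAKO and between 7.83 and 27.8 FPKM in control mice, with 0 called and a median of -0.50 (0.11 over the same genes without control replicate 3). That median of -0.50 is the log2 fold change of Fpr1, which passed the filter only through control replicate 3. With the replicate block 1 of them, Prtn3, was called higher, at 5.07, 16.3 and 6.74 FPKM in HuRAKO mice, against 1.62, 4.82 and 5.93 FPKM in control mice (log2 fold change 0.98, SE 0.30, limma adjusted p = 0.471). All other markers tested had negative log2 fold changes. Elane, with the smallest p of the list, was measured at 0.812, 0.812 and 1.54 FPKM in HuRAKO mice, against 2.04, 1.69 and 1.97 FPKM in control mice. These ranges did not overlap, but the fold was under the threshold (log2 fold change -0.51, SE 0.16, limma adjusted p = 0.506). Adipocyte markers summed to between 13252 and 14390 FPKM in HuRAKO and between 10181 and 15337 FPKM in control mice, lowest in control replicate 3. Of these 16, 1 was higher, Lep, and 0 were lower, with a median of 0.09 (-0.13 without control replicate 3), and the labelled tissue carried its defining markers in every mouse. Markers of adipose progenitors and fibroblasts (17 tested, 0 called, median -0.24, and 0.05 without control replicate 3) summed to between 715 and 792 FPKM in HuRAKO and between 736 and 1295 FPKM in control mice. Endothelial markers were called higher in 4 of 12 genes, against 1.27% of all genes, with 0 lower and a median of 0.56. Without control replicate 3 they were higher in 3 of 12, against 202 over all genes, with a median of 0.42. Their sums lay between 382 and 563 FPKM in HuRAKO and between 232 and 346 FPKM in control mice, without overlap. Erythroid markers, a sign of blood in the tissue, had 0 of 7 called and a median of -0.61 (0.10 without HuRAKO replicate 1), with sums between 477 and 2447 FPKM in HuRAKO and between 1314 and 3435 FPKM in control mice.

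Most liver markers were not among the listed genes. Of 12 hepatocyte markers, 4 were listed and 3 were tested. The 4 summed to between 539 and 708 FPKM in HuRAKO and between 878 and 1372 FPKM in control mice, without overlap, and Cyp2e1 was the highest of them. Alb was measured at 2.64, 3.61 and 2.07 FPKM in HuRAKO mice, against 9.60, 7.47 and 2.89 FPKM in control mice, and it was called lower with Cyp2e1, which is also expressed in fat. The call of Alb was lost under 10 of the 17 alternatives. Of 12 epididymis markers 2 were listed and the 1 tested was not called, Adam7, at most 1.34 FPKM in any mouse.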

How the data were processed

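RNA-seq of epididymal adipose tissue from 3 HuRAKO and 3 control mice was analysed, grouped by the labels. The authors deposited 2 tables of FPKM, of genes and of transcripts, with reads aligned with Bowtie 0.12.2 to GRCm38 per the submitters' processing notes. The program that computed the FPKM is not given in the sources used here. The methods name a KAPA-Stranded library kit and the labels name a TruSeq kit. All 6 columns of values of each table were used and 0 were left out, and 1 empty line per table was dropped.

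Values were taken as log2(FPKM + 1). Features that averaged 0.5 FPKM or more were fitted with limma 3.58.1 in R 4.3.3, two-sided, with Benjamini-Hochberg adjustment over all features. Python 3.11.15 and pandas 2.3.3 were used for the tables, and the fit was checked on simulated data. The 7 genes and all lists were chosen with earlier results of these data known. Named genes are the 7, the 8 genes with the pattern most like Lcn2, Elavl1, and up to 4 genes per list with the smallest p. Other list genes (Mt2, Lrg1, Orm2, Orm3, Serpina3f, Serpina3g, Serpina3i, S100pbp, Slc22a17, Osm, Cxcl2, Ifng, Fpr2, Cd163, Tnf, Il1b, Socs3, Trem2, Adgre1, Cd68, Muc16 and Alb) were named for their role or for a count, after their values were seen. Hif3a, Tfrc and Trf were named later, to describe their list. Promoters came from RefSeq and 3′-UTRs from GENCODE M21.

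The labels number the mice 1 to 3 in each genotype. Deviations from the group means correlated over 12847 genes with r = 0.101, 0.175 and 0.22 in same-numbered mice, each over 0.1. Control replicate 1 also correlated with HuRAKO replicate 2 (r = 0.106), and over 23233 transcripts the same pairs gave r = 0.0403, 0.0553 and 0.0883, under 0.1. Whether the numbers pair the mice is therefore not known. The main fit holds no pairing, and the replicate block is given as an alternative. The scaling, the filter, the pseudocount and the variance model were each varied, a replicate block was added, and each mouse was left out in turn. The use of the highest listed transcript in place of the gene, and list medians over the same genes when a mouse is left out, were added after the data were seen.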

Additional observations from a re-analysis of the deposited data

How the results depend on the processing

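Lcn2 was lower in HuRAKO mice under every alternative run, with log2 fold changes from -1.78 to -0.91. Lcn2 was chosen by this change, and its values do not overlap between genotypes. Leaving out a mouse or changing the pseudocount, the filter or the variance model could therefore not turn its sign. Among the other 6 genes, 0 were called by the study's thresholds, and 1 was (Serpina3n) without control replicate 2 (range without 1 mouse 0 to 1). When 1 mouse was left out, log2 fold changes ran from -1.73 to -0.0159 for Saa3, from -0.46 to 0.32 for Hp, from -0.86 to -0.0219 for Orm1, from -1.08 to -0.29 for Serpina3n, from -0.33 to 0.50 for S100a8 and from -0.70 to 0.62 for S100a9. The sign of Hp turned with array weights (0.21), without HuRAKO replicate 3 (0.17) and without control replicate 3 (0.32). The sign of S100a8 turned without HuRAKO replicate 3 (-0.20) and control replicate 2 (-0.33). That of S100a9 turned without the same mice (-0.42 and -0.70) and with the highest listed transcript (-0.10), an alternative added after the data were seen. The causes were not tested.

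The 1 gene called after adjustment became 3 with FPKM rescaled to a common sum, 3 with array weights, 2 with quantile normalization, 0 without moderation, 0 with a pseudocount of 0.1, and 0 to 3 without 1 mouse. Genes called higher (163) were 102 without moderation and 180 to 211 without 1 mouse. Genes called lower (174) were 111 without moderation, 329 with a pseudocount of 0.1 and 171 to 314 without 1 mouse, and called transcripts (1066) were 673 without moderation and 1090 to 1251 without 1 mouse. The 2 calls among other acute phase genes were 4 with array weights, 1 with a filter of 1 FPKM, 1 without moderation and 2 to 3 without 1 mouse. With the replicate block, 0 genes were called after adjustment and 4 other acute phase genes were called (Itih4, Cp, C3 and Mt2), and no call of the 6 genes changed. The block also added calls of Prtn3, Trem2 and Muc16 among the marker lists. Over all alternatives the limma adjusted p of the 6 genes lay between 0.520 and 0.999. The unknown depth limits what can be said of low genes.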
